A study of Mus musculus with 8 samples.

Results

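Cadherins and protocadherins are the calcium-dependent adhesion proteins with which neighbouring cells recognise and hold each other, and 92 of the 20190 gene symbols in the 4 deposited expression tables belong to the families analysed here. Members were chosen with earlier results of these data known, but by symbol alone, and no measured value entered that rule. They were every gene named Cdh followed by a digit or Pcdh in either kind of table. Of these 34 lie outside the protocadherin gene clusters: 5 type I and 13 type II classical cadherins, 4 other cadherins, 4 delta-1 and 5 delta-2 protocadherins and 3 further protocadherins. The other 58 are clustered protocadherins (14 alpha, 22 beta and 22 gamma genes) and are described apart.

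Classical cadherins bind mostly to their own kind on the next cell through their outermost domain and are tied to the actin skeleton by catenins. In the developing cortex they hold the radial scaffold together, guide migrating neurons and help to sort neurons into layers, areas and synaptic partners. Delta protocadherins adhere more weakly and signal to the actin machinery, several of them through the WAVE complex. The clustered protocadherins give each neuron a surface identity, because each cell switches on its own combination of variable exons. In the alpha and gamma clusters those exons are spliced to shared constant exons, whereas the beta genes have none.

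Expression was measured by RNA-seq of poly(A) RNA from C57BL/6 mice, in 2 Hdac3 KO and 2 wild-type (WT) libraries each of neurospheres and of dorsal cerebral cortex. Neurospheres, which are free-floating cultures of neural progenitors, were grown from E16.5 embryonic cerebrum until day 4, and cortex was taken at postnatal day 0 (P0). The series' design text counts KO and WT brains for each tissue, so each library was read as 1 brain. The titles of the cortex KO libraries name Emx1, and the authors' cortex table names an Emx1 Cre driver, which is active in dorsal telencephalic progenitors and what they give rise to, so cells of other origin need not lack Hdac3. No source used here gave the driver for the neurospheres. Hdac3 encodes a histone deacetylase that works within NCoR and SMRT corepressors. The comparison asked what its loss did to RNA levels in each tissue.

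Hdac3 itself measured 26.8 and 27.1 FPKM (fragments normalised for transcript length and for the mapped total) in KO cortex, against 48.1 and 46.1 FPKM in WT cortex. In KO neurospheres it measured 18.03 and 20.5 FPKM, against 34.4 and 28.7 FPKM in WT neurospheres. Its fall passed in cortex (log2 fold change −0.78, limma-trend BH-adjusted p = 0.000319), and −0.52 with an adjusted p of 3.83e-07 stood in the authors' deposited table. In neurospheres KO was under WT without a call by limma-trend with BH (−0.68, adjusted p = 0.104) or in the authors' deposited table (−0.29, adjusted p = 0.437). The authors' mean normalised counts summed to 15000000 per neurosphere library and 21100000 per cortex library. Of the 34 non-clustered members 24 had a row in the neurosphere FPKM table and 28 in that of cortex. The 6 missing from both were Cdh3, Cdh15, Cdh17, Cdh19, Cdh23 and Cdh26, with mean normalised counts of 2.59 to 31.7 in cortex in the authors' deposited table, and Cdh1, Cdh5, Cdh7 and Pcdh12 were missing from that of neurospheres. Of the 58 clustered members 19 had one in neurospheres and 14 in cortex. A missing row did not always go with low counts. In the authors' deposited table for cortex Pcdhac2 and Pcdhgc4, without a row, had mean normalised counts of 811 and 644. Pcdhb15, with a row, had 78.7. Why such rows were missing was not tested. Both tables hold only genes at about 1 FPKM or more in WT libraries, so a member silent in WT could not be seen there. KO values were not held to that floor: 687 genes in neurospheres and 359 in cortex had a KO value below the lowest WT value. Near the floor a fall in KO could be seen, but a rise from below it could not. Counts of lower and higher genes from FPKM therefore do not stand on equal terms. In bulk tissue fewer cells of a type and less RNA per cell cannot be told apart. FPKM are set per length and per library, and levels in the 2 tissues come from separate tables and were not tested against each other.

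By FPKM the most abundant non-clustered members were the same pair in both tissues, N-cadherin (Cdh2) and T-cadherin (Cdh13). N-cadherin is the main classical cadherin of neural progenitors and neurons. T-cadherin is anchored in the membrane by a lipid and lacks a cytoplasmic tail. By the authors' mean normalised counts, which are not set per length, Cdh13 was lower in the order. It had 2134 in neurospheres, against 2683 for Cdh4. In cortex it had 2109, against 2683 for Cdh11 and 2351 for Pcdh10. Cdh13 measured 51.0 and 51.1 FPKM in KO neurospheres, against 79.9 and 91.3 FPKM in WT neurospheres. Cdh2 measured 80.1 and 78.7 FPKM in KO neurospheres, against 66.3 and 69.6 FPKM in WT neurospheres. Next in WT neurospheres came R-cadherin (Cdh4), with 19.6 and 23.8 FPKM in KO neurospheres, against 17.5 and 23.1 FPKM in WT neurospheres, a pair of ranges that overlapped. Pcdh10 and Pcdh8 followed there, and Pcdh8 averaged 15.2 FPKM in KO neurospheres and 15.4 FPKM in WT neurospheres. In cortex the order below Cdh2 and Cdh13 was Cdh11 and Cdh8, type II cadherins whose WT values of 24.1 and 25.9 FPKM and 25.2 and 19.6 FPKM overlapped.

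In KO cortex 17 of the 27 non-clustered members tested were lower and 0 were higher (limma-trend on log2(FPKM + 1), Benjamini-Hochberg (BH) adjusted p under 0.05 over all 11988 genes), against 17.7% of all genes lower and 4.8% higher. At an unadjusted p under 0.05 the counts were 21 lower and 1 higher, against 30.8% of all genes lower and 8.22% higher. The fall reached 8 of 12 type II cadherins, 6 of 9 delta protocadherins, both of the remaining non-clustered protocadherins tested, and R-cadherin alone of 3 type I cadherins. The median log2 fold change of the 27 was −0.41, and that of all genes was −0.10. In 21 of the 27 both KO values lay below both WT values, in 3 both lay above and in 3 they overlapped, while over all genes these shares were 50.2% below and 15.5% above.

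These calls depended on scaling and on single libraries. After the 4 libraries were rescaled so that the median gene did not move, 12 of the 17 were still lower, and Cdh6, Cdh8, Cdh20, Cdh22 and Pcdh18 no longer passed, while Cdh2 and Cdh5 became higher. Without cortex KO 1, KO 2, WT 1 and WT 2 in turn, 11, 8, 12 and 10 of the 17 kept their calls, with T-cadherin gained without KO 2, and 7 members passed in all 4 of these fits: Pcdh10, Pcdh20, Pcdh17, Cdh10, Pcdh7, Cdh12 and Cdh4. With the spread estimated over all 8 libraries, neurospheres included, 0 members and 6 genes passed in cortex.

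**Figure D1:**
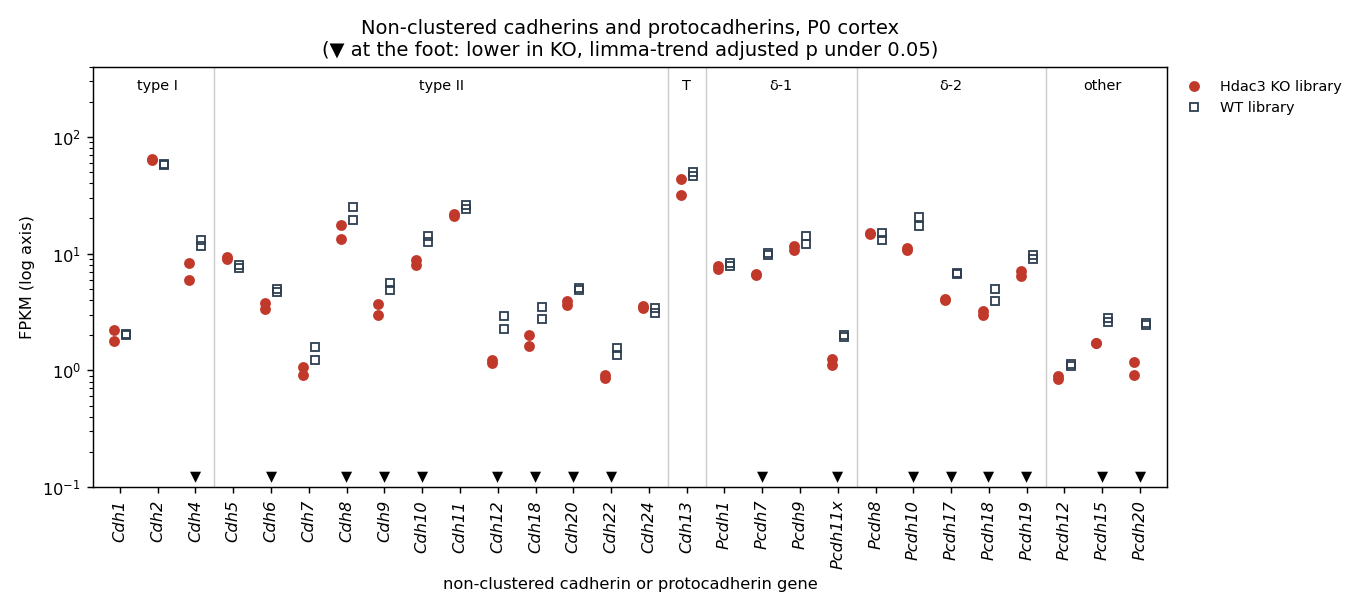
FPKM on a log axis of each non-clustered cadherin and protocadherin in P0 cortex, with filled circles for the 2 KO libraries, open squares for the 2 WT libraries, T for T-cadherin and a mark at the foot where KO was lower by limma-trend. Type II cadherins and delta protocadherins sit below WT in most columns, whereas Cdh2, Cdh5 and Pcdh8 do not.

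Among type II cadherins, which pattern axon tracts and nuclei through selective adhesion, the neighbours Cdh12 and Cdh10 had low adjusted p values. Cdh12 measured 1.16 and 1.22 FPKM in KO cortex, against 2.26 and 2.91 FPKM in WT cortex, or 0.460 of the WT mean, the smallest among the type II cadherins tested. That was −0.71 on the log2 scale (SE 0.11, limma-trend BH-adjusted p = 0.00405). Cdh10 measured 8.07 and 8.88 FPKM in KO cortex, against 12.5 and 14.1 FPKM in WT cortex, or −0.59 on the log2 scale (SE 0.09, limma-trend BH-adjusted p = 0.00350). For both genes the KO libraries lay together, well under either WT library.

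Cdh8, the type II cadherin with the second highest level in WT cortex and known from synapses of sensory circuits, was at 17.4 and 13.3 FPKM in KO cortex, against 25.2 and 19.6 FPKM in WT cortex. Its libraries spread widely within each genotype but the groups did not overlap (log2 fold change −0.52, limma-trend BH-adjusted p = 0.0289). Cdh9, known from hippocampal synapse formation, measured 3.67 and 2.999 FPKM in KO cortex, against 4.85 and 5.56 FPKM in WT cortex (log2 fold change −0.52, limma-trend BH-adjusted p = 0.0127). Cdh18 measured 1.63 and 2.01 FPKM in KO cortex, against 2.73 and 3.50 FPKM in WT cortex, and again the groups did not overlap (log2 fold change −0.54, limma-trend BH-adjusted p = 0.0146).

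Smaller falls were found for Cdh6, Cdh20 and Cdh22, all of which lost their calls after rescaling. Cdh6, an early marker of forebrain regions, measured 3.33 and 3.79 FPKM in KO cortex, against 4.67 and 5.03 FPKM in WT cortex (log2 fold change −0.36, limma-trend BH-adjusted p = 0.0294). Cdh20 measured 3.95 and 3.60 FPKM in KO cortex, against 4.85 and 5.04 FPKM in WT cortex (log2 fold change −0.32, limma-trend BH-adjusted p = 0.0380). Cdh22 was low in every library, at 0.867 and 0.918 FPKM in KO cortex, against 1.55 and 1.36 FPKM in WT cortex (log2 fold change −0.38, limma-trend BH-adjusted p = 0.0261). In all 3 genes both KO values were under both WT values.

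The 4 type II cadherins that did not pass were Cdh5, Cdh7, Cdh11 and Cdh24. Cdh11, a mesenchymal and neuronal cadherin, measured 22.0 and 21.1 FPKM in KO cortex, against 24.1 and 25.9 FPKM in WT cortex, groups that did not overlap, yet the log2 fold change (−0.21) did not pass (limma-trend BH-adjusted p = 0.0683). VE-cadherin (Cdh5), the junction protein of blood vessel endothelium, measured 9.44 and 9.05 FPKM in KO cortex, against 7.96 and 7.52 FPKM in WT cortex, so that KO was above WT. The log2 fold change was 0.23 and did not pass (limma-trend BH-adjusted p = 0.0732) but did so after rescaling (0.33, adjusted p = 0.0184). The authors' deposited table gave 0.34 for Cdh5 (SE 0.11, adjusted p = 0.0213). Of 9 other endothelial marker genes 0 passed in KO cortex by limma-trend with BH or in the authors' deposited table and 1 had an unadjusted p under 0.05, and their summed level was 93.4 to 96.5 FPKM in KO against 87.2 to 88.7 FPKM in WT. The part of vessel cells in the Cdh5 value was not tested.

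Type I cadherins differed among themselves. R-cadherin (Cdh4), which marks cortical regions and supports axon outgrowth, measured 6.00 and 8.37 FPKM in KO cortex, against 13.2 and 11.7 FPKM in WT cortex. The log2 fold change was −0.73 (SE 0.13, limma-trend BH-adjusted p = 0.00700), and the groups did not overlap. The authors' deposited table gave −0.49 (adjusted p = 0.0800), which was no call. N-cadherin, by contrast, measured 63.4 and 64.7 FPKM in KO cortex, against 58.8 and 57.8 FPKM in WT cortex, with both KO libraries above both WT libraries. The log2 fold change was 0.13 and did not pass (limma-trend BH-adjusted p = 0.141), passed after rescaling (0.25, adjusted p = 0.0282), and stood at 0.27 in the authors' deposited table (adjusted p = 0.00397). E-cadherin (Cdh1), the cadherin of epithelia, was low in every library, at 1.79 and 2.22 FPKM in KO cortex, against 2.05 and 2.00 FPKM in WT cortex, and the groups overlapped.

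Added over the 15 classical cadherins in the cortex table, levels were 147.1 and 146.8 FPKM in KO, against 169 and 167 FPKM in WT. N-cadherin made up 43.1% and 44.1% of that sum in KO cortex, against 34.7% in each WT library. The 12 type II cadherins summed to 75.9 and 71.5 FPKM in KO cortex, against 95.3 and 95.1 FPKM in WT cortex. T-cadherin, with 32.1 and 43.9 FPKM in KO cortex, against 50.4 and 46.2 FPKM in WT cortex, did not pass the threshold (log2 fold change −0.35, limma-trend BH-adjusted p = 0.0689), and its KO libraries lay far apart. Without cortex KO 2 its log2 fold change was −0.57. The authors' deposited table gave −0.18 for T-cadherin in cortex (SE 0.19, adjusted p = 0.646), which was no call.

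Of the delta protocadherins, Pcdh10 had the lowest adjusted p of all members. Pcdh10 (OL-protocadherin), which binds the WAVE complex and is needed for forebrain axon growth, measured 10.7 and 11.1 FPKM in KO cortex, against 20.7 and 17.2 FPKM in WT cortex, means of 10.9 ± 0.322 in KO and 18.96 ± 2.42 in WT (SD, n = 2 each). Its log2 fold change was −0.74 (SE 0.09, limma-trend BH-adjusted p = 0.00183), and after rescaling −0.63 (adjusted p = 0.00400). Pcdh17, which also recruits the WAVE complex at axon contacts, was at 3.98 and 4.11 FPKM in KO cortex, against 6.88 and 6.63 FPKM in WT cortex (log2 fold change −0.62, limma-trend BH-adjusted p = 0.00258). In both genes the KO libraries nearly coincided and sat well below WT.

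The other delta-2 genes that passed were Pcdh19 and Pcdh18. Pcdh19, the X-linked gene mutated in a female-limited epilepsy and a partner of N-cadherin, measured 7.05 and 6.49 FPKM in KO cortex, against 8.96 and 9.68 FPKM in WT cortex (log2 fold change −0.41, limma-trend BH-adjusted p = 0.0130). Pcdh18 measured 3.22 and 2.96 FPKM in KO cortex, against 4.94 and 3.96 FPKM in WT cortex (log2 fold change −0.41, limma-trend BH-adjusted p = 0.0300), and it did not pass after rescaling. Pcdh8 (arcadlin), an activity-induced protocadherin that takes N-cadherin off the synaptic surface, was the delta-2 gene that did not pass, at 15.1 and 14.8 FPKM in KO cortex, against 15.1 and 13.1 FPKM in WT cortex, with overlapping groups (log2 fold change 0.08, limma-trend BH-adjusted p = 0.514).

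Of the delta-1 genes, whose cytoplasmic tails carry a motif that binds protein phosphatase 1, Pcdh7 and Pcdh11x fell. Pcdh7 measured 6.69 and 6.57 FPKM in KO cortex, against 9.81 and 10.2 FPKM in WT cortex (log2 fold change −0.53, SE 0.08, limma-trend BH-adjusted p = 0.00364). The X-linked Pcdh11x measured 1.24 and 1.12 FPKM in KO cortex, against 1.92 and 2.02 FPKM in WT cortex (log2 fold change −0.44, limma-trend BH-adjusted p = 0.0133). In both the groups were apart, whereas for Pcdh1 they overlapped. Pcdh9 stood below WT in both KO libraries and did not pass (log2 fold change −0.22, limma-trend BH-adjusted p = 0.118). The 9 delta protocadherins summed to 67.4 and 65.2 FPKM in KO cortex, against 88.7 and 84.9 FPKM in WT cortex.

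Pcdh20, a neuronal protocadherin outside the delta groups, had the largest fall of all members tested in cortex. It measured 1.19 and 0.906 FPKM in KO cortex, against 2.45 and 2.54 FPKM in WT cortex, a ratio of 0.418 (log2 fold change −0.78, SE 0.10, limma-trend BH-adjusted p = 0.00212). The Cufflinks intervals of its values ran from 0.748 to 1.36 FPKM in KO cortex and from 2.17 to 2.82 FPKM in WT cortex, so they did not meet. Pcdh15, the lower part of the tip link of inner ear hair cells, measured 1.73 and 1.71 FPKM in KO cortex, against 2.62 and 2.82 FPKM in WT cortex (log2 fold change −0.45, limma-trend BH-adjusted p = 0.0117). Pcdh12, an endothelial protocadherin, averaged under 1 FPKM over the libraries and was not tested, with 0.897 and 0.847 FPKM in KO cortex, against 1.08 and 1.14 FPKM in WT cortex. Both KO values were under both WT values in all 3 genes.

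In the authors' deposited table for cortex, 11 of the 29 non-clustered members with an adjusted p were lower and 2 were higher, Cdh2 and Cdh5, against 5.55% of all genes lower and 6.35% higher. The 11 were Cdh8, Cdh9, Cdh10, Cdh12, Pcdh7, Pcdh10, Pcdh15, Pcdh17, Pcdh18, Pcdh19 and Pcdh20, all of which were also lower in the FPKM fit, and Cdh4, Cdh6, Cdh18, Cdh20, Cdh22 and Pcdh11x were lower in the FPKM fit only. That table was computed from counts of the same libraries and is no independent measurement. Its largest fall among members was again Pcdh20 (log2 fold change −0.96, SE 0.17, adjusted p = 1.02e-06). Cdh12 followed at −0.89 in the authors' deposited table (SE 0.17, adjusted p = 3.74e-06).

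**Figure D2:**
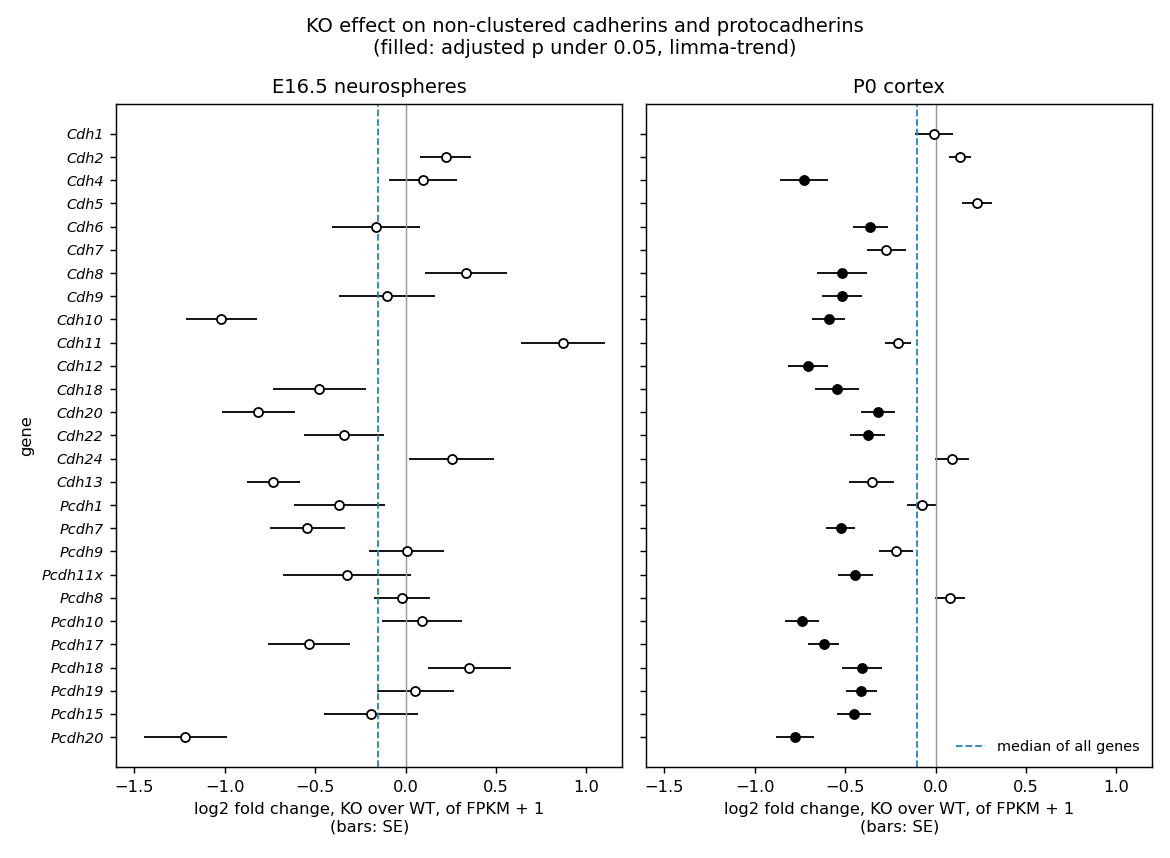
Log2 fold change of FPKM + 1, KO over WT, for each non-clustered member tested in neurospheres (left) and cortex (right), with bars for the SE, filled points for an adjusted p under 0.05 and a dashed line at the median of all genes. In cortex 17 filled points lie left of the dashed line, and in neurospheres 0 points are filled, with Pcdh20 and Cdh10 farthest left and Cdh11 farthest right.

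Several of the members that fell in cortex are neighbours in the genome. In the RefSeq gene table of GRCm38.p6 Cdh6, Cdh9, Cdh10 and Cdh12 follow each other on chromosome 15 with no other protein-coding gene listed between them, and Cdh18 comes next but for Acot10. All 5 were lower in KO cortex. Pcdh10 and Pcdh18, both lower, lie on either side of Pabpc4l on chromosome 3. Neighbours did not always move together: on chromosome 14 Pcdh20 passed and the adjacent Pcdh9 did not, and in the run of Cdh8, Cdh11 and Cdh5 on chromosome 8 Cdh8 alone passed. These counts describe the order of genes, and shared position was not tested.

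Promoters of 4 members are shown because they set the genes that fell beside 1 that did not. They run from 250 bases before to 50 bases after the gene start, 5′ to 3′ on the gene's strand, from the RefSeq annotation of GRCm38.p6, with each CG in capitals. Pcdh20 (chr14:88471347-88471646, minus strand) and Cdh10 (chr15:18820079-18820378, plus strand) had large falls and few CG. Pcdh10 (chr3:45378148-45378447, plus strand) fell and is rich in CG, and Pcdh8 (chr14:79771263-79771562, minus strand) did not pass in either tissue.
Pcdh20: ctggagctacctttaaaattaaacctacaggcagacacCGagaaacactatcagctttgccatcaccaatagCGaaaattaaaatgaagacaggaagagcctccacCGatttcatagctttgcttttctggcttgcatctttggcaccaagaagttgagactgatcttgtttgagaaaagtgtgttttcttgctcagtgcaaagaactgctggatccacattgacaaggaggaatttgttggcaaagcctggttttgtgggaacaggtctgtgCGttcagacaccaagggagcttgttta
Cdh10: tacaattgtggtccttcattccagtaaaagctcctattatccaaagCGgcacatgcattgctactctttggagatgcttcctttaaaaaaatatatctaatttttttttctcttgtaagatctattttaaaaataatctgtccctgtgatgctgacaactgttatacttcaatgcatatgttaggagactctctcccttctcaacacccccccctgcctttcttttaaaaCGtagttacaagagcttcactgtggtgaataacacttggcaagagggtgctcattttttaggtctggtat
Pcdh10: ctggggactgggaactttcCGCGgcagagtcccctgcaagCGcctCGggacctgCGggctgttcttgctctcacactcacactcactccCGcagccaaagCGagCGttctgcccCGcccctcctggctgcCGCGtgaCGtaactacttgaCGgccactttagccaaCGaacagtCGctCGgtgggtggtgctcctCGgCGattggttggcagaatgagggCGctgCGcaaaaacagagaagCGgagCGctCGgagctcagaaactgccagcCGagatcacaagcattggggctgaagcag
Pcdh8: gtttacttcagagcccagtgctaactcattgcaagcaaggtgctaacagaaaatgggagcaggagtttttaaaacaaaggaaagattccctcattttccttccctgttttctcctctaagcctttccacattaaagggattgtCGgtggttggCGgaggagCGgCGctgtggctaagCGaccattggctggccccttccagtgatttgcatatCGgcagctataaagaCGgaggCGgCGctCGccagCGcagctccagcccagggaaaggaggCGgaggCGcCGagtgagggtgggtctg

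The 4 windows held 4, 2, 24 and 14 CG in that order, against a median of 7 over 27025 mouse promoters of the same 300 bases. A promoter was found for 22 members, with 2 to 38 CG and a median of 13. The 15 of them that were lower in KO cortex spanned that whole range, with a median of 12. The 4 of them tested but not called had 14 to 30 with a median of 18. Among non-clustered members not called, Cdh1, Cdh2, Cdh5, Cdh11, Cdh13 and Pcdh1 had no promoter here. Of those that were lower, Cdh4 and Pcdh11x had none, and the groups were not tested against each other. The letters AGGTCA, the half-site of many nuclear receptors that use the NCoR and SMRT corepressors, were searched on both strands and found in 1 of the 22, Cdh18, and in 16.0% of all promoters. A match to letters is a description and shows no binding.

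In KO neurospheres 0 of the 23 non-clustered members tested passed in either direction by limma-trend with BH, against 0.929% of 11408 genes lower and 0.219% higher. At an unadjusted p under 0.05 the counts were 6 lower and 1 higher, against 16.3% of all genes lower and 3.77% higher. The median log2 fold change of the 23 was −0.16, and that of all genes was −0.15. Both KO values lay below both WT values in 8 of the 23, above in 6, and the groups overlapped in 9, while the shares over all genes were 38.3% below and 14.6% above. The authors' deposited table for neurospheres called 3 of 25 lower and 1 higher, against 2.3% of all genes lower and 3.49% higher.

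Those 4 were Pcdh20, Cdh10, Cdh13 and Cdh11. Pcdh20 measured 0.908 and 0.848 FPKM in KO neurospheres, against 3.33 and 3.41 FPKM in WT neurospheres, or 0.260 of the WT mean. On the log2 scale the change was −1.22 (SE 0.23, limma-trend BH-adjusted p = 0.0670), and the authors' deposited table gave −1.23 (adjusted p = 0.000211). Cdh10 measured 6.75 and 5.30 FPKM in KO neurospheres, against 14.2 and 12.2 FPKM in WT neurospheres (log2 fold change −1.02, limma-trend BH-adjusted p = 0.0701), against −0.78 in the authors' deposited table (adjusted p = 0.00859). In both genes the KO libraries lay together below WT, and both genes were among those lower in KO cortex.

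T-cadherin, given above, had a log2 change of −0.73 in neurospheres (SE 0.15, limma-trend BH-adjusted p = 0.0736) and of −0.53 in the authors' deposited table (adjusted p = 0.0205). Cdh11 went the other way, with 10.6 and 7.98 FPKM in KO neurospheres, against 5.39 and 3.89 FPKM in WT neurospheres, and its groups did not overlap (log2 fold change 0.87, SE 0.23, limma-trend BH-adjusted p = 0.129). The authors' deposited table gave 0.87 for it (adjusted p = 0.00283). Markers of meningeal fibroblasts were also higher in KO neurospheres: 4 of the 7 in the authors' deposited table passed, led by the collagens Col3a1 (4.28, adjusted p = 8.27e-74) and Col1a1 (3.28, adjusted p = 5.18e-39). The 1 marker of that list with FPKM, Dcn, measured 10.45 and 9.46 FPKM in KO neurospheres, against 2.98 and 1.71 FPKM in WT neurospheres (log2 fold change 1.74, limma-trend BH-adjusted p = 0.0358). The part of such cells in the Cdh11 value was not tested. Without KO 7 the test called 2 members lower, Pcdh20 and Cdh10. Without KO 8 it called Pcdh20 and Cdh20 lower and Cdh11 higher, and without WT 5 or WT 6 it called 0.

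The type II cadherins Cdh20 and Cdh12 also had KO values under WT in neurospheres without a call. Cdh20 measured 5.75 and 7.92 FPKM in KO neurospheres, against 12.7 and 12.6 FPKM in WT neurospheres (log2 fold change −0.82, limma-trend BH-adjusted p = 0.111). Cdh12 averaged under 1 FPKM over the 4 libraries and was not tested, with 0.379 and 0.140 FPKM in KO neurospheres, against 1.16 and 1.15 FPKM in WT neurospheres, and the authors' deposited table gave it −0.80 (adjusted p = 0.0708). N-cadherin was above WT in both KO libraries and did not pass (log2 fold change 0.22, limma-trend BH-adjusted p = 0.414). It made up 56.9% and 54.9% of the summed level of 12 classical cadherins in KO neurospheres, against 49.3% and 48.8% in WT neurospheres.

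The delta protocadherins were spread about 0 in neurospheres, with 5 below and 4 above. Pcdh7 measured 7.54 and 6.50 FPKM in KO neurospheres, against 9.19 and 12.4 FPKM in WT neurospheres. Pcdh17 measured 4.16 and 4.19 FPKM in KO neurospheres, against 5.45 and 7.71 FPKM in WT neurospheres. In both the groups were apart without passing the threshold (limma-trend BH-adjusted p = 0.214 and 0.247). Pcdh10, which led in cortex, measured 16.1 and 16.4 FPKM in KO neurospheres, against 12.1 and 18.97 FPKM in WT neurospheres, and both KO values fell inside the WT range. The 9 delta genes summed to 80.3 and 70.1 FPKM in KO neurospheres, against 72.2 and 95.4 FPKM in WT neurospheres.

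**Figure D3:**
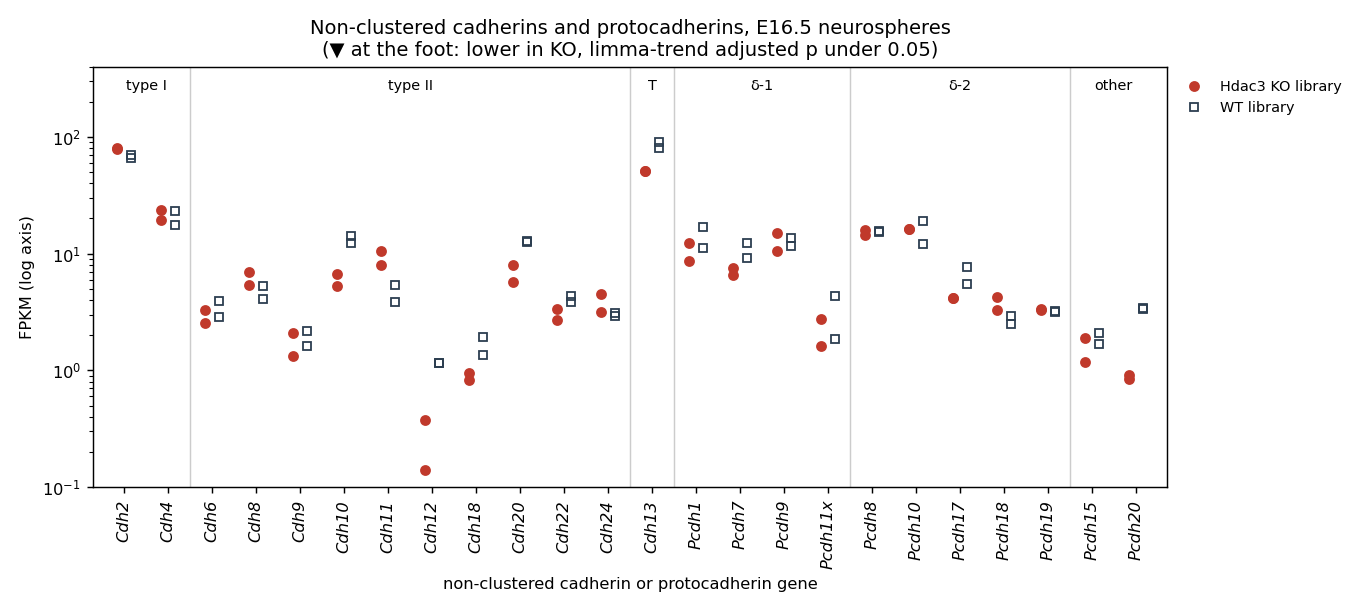
FPKM on a log axis of each non-clustered cadherin and protocadherin in E16.5 neurospheres, with filled circles for the 2 KO libraries, open squares for the 2 WT libraries and T for T-cadherin. Pcdh20, Cdh10, Cdh12 and Cdh13 sit below WT in both KO libraries and Cdh11 above, and no gene carries the mark of a limma-trend call.

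The KO effect itself was compared between the tissues in a joint fit of all 8 libraries, for the 10947 genes tested in both. Of the 35 members in that fit 0 passed by limma-trend with BH, against 1.4% of all genes, and 9 had an unadjusted p under 0.05, against 17.6% of all genes. In 7 of the 35 both KO values were above WT in neurospheres and below WT in cortex, a pattern shown by 5.37% of all genes in that fit. Cdh11 came closest, with a difference of 1.08 on the log2 scale (SE 0.24, adjusted p = 0.0688), neurosphere effect minus cortex effect, and passed after rescaling within each tissue (1.11, adjusted p = 0.0460). For Pcdh10 the difference was 0.83 (SE 0.27, adjusted p = 0.161) and for Pcdh18 0.76 (SE 0.23, adjusted p = 0.141). Without neurosphere WT 6 the difference passed for Cdh11 (0.88, adjusted p = 0.0460), Pcdh10 (1.14, adjusted p = 0.0197) and Pcdhb19 (1.11, adjusted p = 0.0260), and without neurosphere KO 8 it passed for Cdh11 (1.26, adjusted p = 0.0261). In the fit of all libraries a member called in cortex and not in neurospheres was therefore not shown to differ between them.

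Clustered protocadherins lie side by side on chromosome 18, are close in sequence and, in the alpha and gamma clusters, share their constant exons. No source used here says how shared reads were assigned, which makes all of their values uncertain. The FPKM tables held beta genes and Pcdhgc3, a C-type gamma gene of the kind used without random choice, and 0 of the alpha genes. The authors' deposited tables held 57 of the 58 in neurospheres and all 58 in cortex.

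Pcdhgc3 had by far the highest FPKM of any member. How far reads from the shared gamma exons entered that FPKM was not tested. The authors' mean normalised counts, which are not set per length, placed it under Cdh2 in both tissues. Against 6367 in cortex and 6303 in neurospheres for Cdh2, those counts were 2083 and 3503 for Pcdhgc3. It measured 179 and 177 FPKM in KO cortex, against 223 and 209 FPKM in WT cortex, a ratio of 0.824 (log2 fold change −0.28, SE 0.06, limma-trend BH-adjusted p = 0.0174), and did not pass after rescaling (adjusted p = 0.101). The authors' deposited table gave it −0.05 in cortex (SE 0.09, adjusted p = 0.846), so the call rests on the FPKM fit alone. In neurospheres it measured 240.4 and 236 FPKM in KO neurospheres, against 248 and 255 FPKM in WT neurospheres, with both KO libraries just under WT (limma-trend BH-adjusted p = 0.832).

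In cortex 3 of 13 clustered members tested were lower and 0 higher by limma-trend with BH (4 lower and 0 higher at an unadjusted p under 0.05), where the shares of all genes were 17.7% lower by adjusted and 30.8% lower by unadjusted p. The 3 were Pcdhgc3 and the beta genes Pcdhb7 and Pcdhb19. Pcdhb7 measured 2.69 and 2.70 FPKM in KO cortex, against 3.57 and 3.81 FPKM in WT cortex (log2 fold change −0.34, limma-trend BH-adjusted p = 0.0284). Pcdhb19 measured 1.79 and 1.52 FPKM in KO cortex, against 2.36 and 2.35 FPKM in WT cortex (log2 fold change −0.34, limma-trend BH-adjusted p = 0.0384). The groups were apart in both genes, yet 0 of the 3 passed after rescaling. Without KO 1 or KO 2 none of the 3 passed, and without WT 1 or WT 2 Pcdhgc3 alone of them did, while Pcdhb12 was gained without WT 1 (−0.47, adjusted p = 0.0379, limma-trend with BH). The median log2 fold change of the 13 was −0.16, against −0.10 over all genes.

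Values of the other beta genes in cortex were small and mostly close between genotypes. Pcdhb17 measured 4.03 and 3.38 FPKM in KO cortex, against 4.86 and 4.49 FPKM in WT cortex. Pcdhb20 measured 4.64 and 3.95 FPKM in KO cortex, against 4.74 and 5.22 FPKM in WT cortex. Pcdhb22 measured 2.88 and 2.88 FPKM in KO cortex, against 3.07 and 3.23 FPKM in WT cortex. In these 3 genes KO was under WT without passing. The same held for Pcdhb3, at 0.877 and 0.982 FPKM in KO cortex, against 1.19 and 1.11 FPKM in WT cortex, for Pcdhb15, at 0.967 and 1.01 FPKM in KO cortex, against 1.04 and 1.16 FPKM in WT cortex, and for the untested Pcdhb14, at 0.897 and 0.586 FPKM in KO cortex, against 1.04 and 1.07 FPKM in WT cortex. Groups overlapped for Pcdhb12, at 1.42 and 1.56 FPKM in KO cortex, against 1.38 and 2.44 FPKM in WT cortex. They also overlapped for Pcdhb16, at 1.52 and 1.25 FPKM in KO cortex, against 1.49 and 1.65 FPKM in WT cortex, and for Pcdhb18, at 1.35 and 1.21 FPKM in KO cortex, against 1.28 and 1.68 FPKM in WT cortex. Both KO values lay above WT without passing in Pcdhb5, at 2.98 and 2.38 FPKM in KO cortex, against 1.84 and 2.34 FPKM in WT cortex and in Pcdhb9, at 4.599 and 4.51 FPKM in KO cortex, against 4.08 and 4.25 FPKM in WT cortex.

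In neurospheres most beta genes had fold changes above 0. Of 18 tested 15 had a log2 fold change above 0 and 0 passed by limma-trend with BH (1 higher at an unadjusted p under 0.05, against 3.77% of all genes), with a median of 0.17 against −0.15 over all genes. Summed over the 18, levels were 58.1 and 50.8 FPKM in KO neurospheres, against 42.5 and 45.4 FPKM in WT neurospheres. Both KO values were above both WT values in 9 of them, a pattern shown by 14.6% of all genes. The clearest was Pcdhb9, at 4.47 and 4.97 FPKM in KO neurospheres, against 2.64 and 2.81 FPKM in WT neurospheres (log2 fold change 0.62, SE 0.21, limma-trend BH-adjusted p = 0.185). The beta genes share sequence and a region and are not independent of each other.

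The other 8 beta genes above WT in both KO libraries had wide WT spreads in part. Pcdhb2 measured 4.07 and 3.62 FPKM in KO neurospheres, against 1.500 and 2.99 FPKM in WT neurospheres. Pcdhb19 measured 3.58 and 3.90 FPKM in KO neurospheres, against 1.77 and 2.85 FPKM in WT neurospheres. Pcdhb12 measured 3.16 and 1.93 FPKM in KO neurospheres, against 1.73 and 1.17 FPKM in WT neurospheres. In these 3 genes the gap between the groups was smaller than the spread between the WT libraries. Pcdhb22 measured 3.17 and 3.47 FPKM in KO neurospheres, against 2.47 and 2.62 FPKM in WT neurospheres. Pcdhb18 measured 2.37 and 2.32 FPKM in KO neurospheres, against 1.55 and 2.24 FPKM in WT neurospheres. Pcdhb17 measured 7.09 and 6.44 FPKM in KO neurospheres, against 6.21 and 6.16 FPKM in WT neurospheres. The groups were close in Pcdhb17 and Pcdhb18 and farther apart in Pcdhb22. Pcdhb11 measured 2.60 and 2.27 FPKM in KO neurospheres, against 1.80 and 1.73 FPKM in WT neurospheres, and Pcdhb6 measured 1.86 and 1.58 FPKM in KO neurospheres, against 1.15 and 1.34 FPKM in WT neurospheres.

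The remaining 9 beta genes in neurospheres showed no separation above WT. Pcdhb20 measured 7.45 and 4.03 FPKM in KO neurospheres, against 5.53 and 4.43 FPKM in WT neurospheres. Pcdhb5 measured 4.14 and 3.28 FPKM in KO neurospheres, against 3.60 and 3.43 FPKM in WT neurospheres. Pcdhb3 measured 3.52 and 2.81 FPKM in KO neurospheres, against 3.89 and 2.15 FPKM in WT neurospheres. All 3 overlapped, and so did Pcdhb7, at 3.38 and 2.74 FPKM in KO neurospheres, against 2.65 and 3.88 FPKM in WT neurospheres. Pcdhb4 measured 1.56 and 2.22 FPKM in KO neurospheres, against 1.42 and 1.68 FPKM in WT neurospheres, Pcdhb10 1.91 and 1.41 FPKM in KO neurospheres, against 1.21 and 1.53 FPKM in WT neurospheres, and Pcdhb15 1.75 and 1.11 FPKM in KO neurospheres, against 1.11 and 1.86 FPKM in WT neurospheres. Again the groups overlapped, as they did for Pcdhb14, at 0.900 and 1.58 FPKM in KO neurospheres, against 1.04 and 1.16 FPKM in WT neurospheres. Pcdhb8 alone of the beta genes had both KO values below WT, at 1.10 and 1.16 FPKM in KO neurospheres, against 1.18 and 1.40 FPKM in WT neurospheres.

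Over the wider set in the authors' deposited tables, 44 of 57 clustered genes were above 0 in neurospheres and 13 below, with 0 of 52 past the threshold, while in cortex 18 of 58 were above 0 and 40 below. In cortex 1 passed in each direction, against the shares of 5.55% and 6.35% given above for all genes in that table. Pcdhb11 was higher (log2 fold change 1.40, SE 0.21, adjusted p = 5.48e-09 in the authors' deposited table) and Pcdhga1, the first gene of the gamma cluster, was lower (−0.57, SE 0.17, adjusted p = 0.0136 in the authors' deposited table). Neither had a row in the cortex FPKM table, so no library values could be set beside them.

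**Figure D4:**
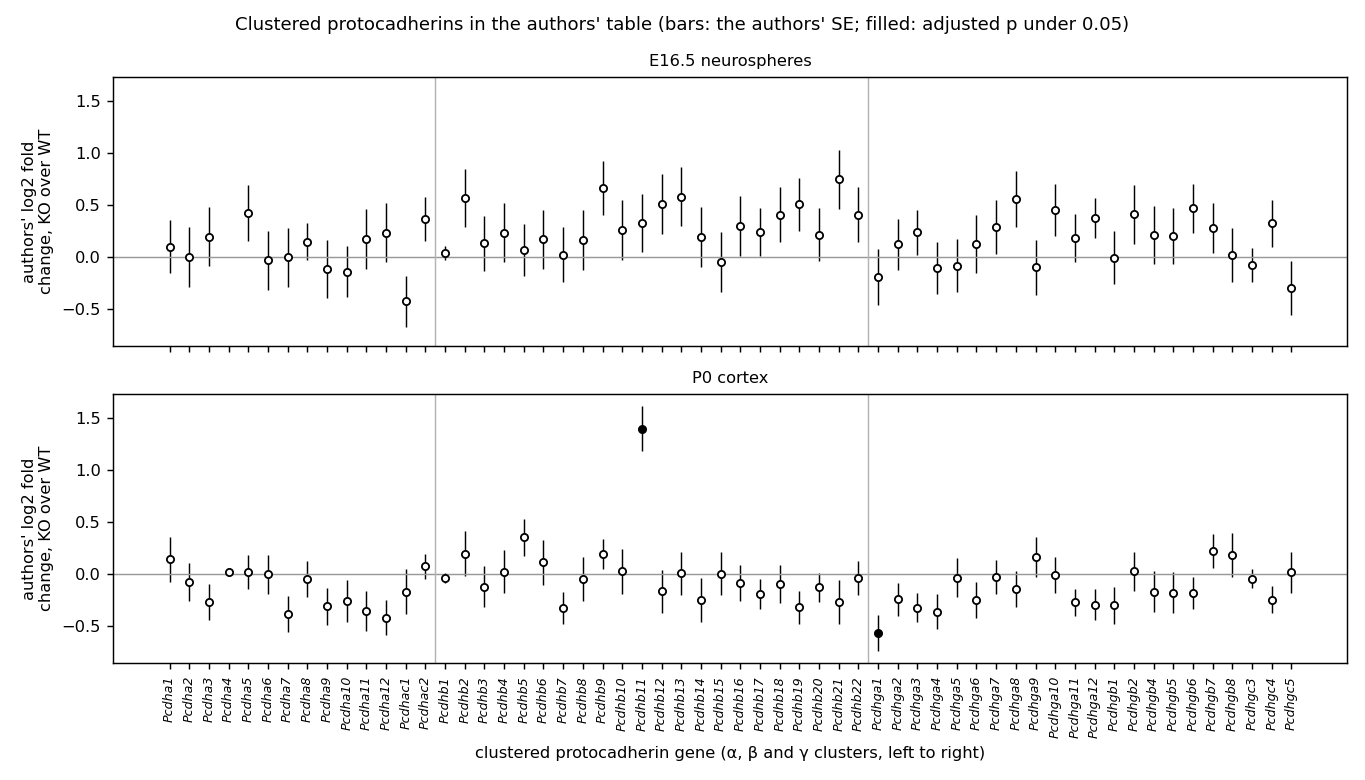
The authors' log2 fold change, KO over WT, of each clustered protocadherin for neurospheres (top) and cortex (bottom). Genes are set out by cluster (alpha, beta, gamma) and then by gene name, not by position on the chromosome. Bars give the authors' SE, and filled points an adjusted p under 0.05. Most points lie above 0 in neurospheres and below 0 in cortex, where Pcdhb11 stands far above the rest at 1.40.

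Genes that work with cadherins are given as 7 lists, beside the shares of 17.7% lower and 4.8% higher over all genes in KO cortex. Catenins are the cytoplasmic partners that link cadherins to actin, and their list also held Ctnnbip1, which is not a catenin. Of the 10 genes of that list tested 0 passed in either direction by limma-trend with BH. An unadjusted p under 0.05 was found for 3 (39.0% of all genes had one), and the authors' deposited table called 1 of the list, Jup, higher. The list of atypical cadherins also held Fjx1, which is not a cadherin, and of the 12 genes of that list tested 3 were lower and 1 higher. The desmosomal Dsc3, the calsyntenin Clstn1 and the giant cadherin Fat4 fell (log2 fold changes −0.54, −0.35 and −0.29), and the planar polarity cadherin Celsr3 rose (0.28). Clstn1 measured 87.0 and 97.8 FPKM in KO cortex, against 122 and 114 FPKM in WT cortex. Celsr3 measured 15.2 and 15.7 FPKM in KO cortex, against 13.3 and 11.8 FPKM in WT cortex.

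Of 13 nectins and junction adaptors 2 were lower in KO cortex, Magi1 and Lin7c (−0.25 each). Of 15 WAVE complex members and linked kinases Wasf3 alone was lower (−0.28). Of 13 proteases that process cadherins, the proprotein convertase Pcsk5 rose and its relative Pcsk6 fell (0.60 and −0.44). Of 19 genes that act in protocadherin promoter choice, the cohesin genes Smc1a and Pds5b were lower (−0.33 and −0.40) and the demethylase Kdm1a higher (0.30). Of 4 transcriptional repressors of cadherins, Zeb2 was lower, at 27.0 and 23.8 FPKM in KO cortex, against 33.9 and 36.8 FPKM in WT cortex. The authors' deposited table for cortex called 0 nectins or junction adaptors, and 3 atypical cadherins lower and 2 higher. Its calls lower and higher were 0 and 1 for the WAVE list and 1 and 2 for proteases. They were 2 and 1 for promoter choice and 1 and 1 for repressors, against 5.55% and 6.35% of all genes. In neurospheres 0 genes of these 7 lists passed by limma-trend with BH, and 10 had an unadjusted p under 0.05, against 20.1% of all genes. The authors' deposited table called 6 of them, with Celsr3, Dchs1, Celsr2 and Cyfip2 higher and Adam9 and Zeb1 lower. Over all genes that table called 3.49% higher and 2.3% lower. From the lists it held 11 genes for catenins, 22 for atypical cadherins, 14 for nectins and adaptors and 13 for proteases. It held 15 for the WAVE list, 20 for promoter choice and 8 for repressors, some of all these without an adjusted p.

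Markers of other cell types moved in the same libraries. In KO cortex the summed level of 5 astrocyte markers was 183 to 211 FPKM against 111 to 114 FPKM in WT, with 3 higher and 1 lower, and Gfap alone averaged 92.8 FPKM in KO against 20.9 FPKM in WT. For 8 meningeal markers, 7 of them higher, the sum was 89.8 to 96.7 FPKM in KO against 67.3 to 69.7 FPKM in WT. For 7 oligodendrocyte lineage markers, 4 of them higher, it was 77.3 to 88.2 FPKM in KO against 59.6 to 70.0 FPKM in WT. For 8 radial glia markers, 3 of them higher, it was 1383 to 1471 FPKM in KO against 1054 to 1155 FPKM in WT. Most of that sum was Fabp7, with means of 1211 FPKM in KO and 923.5 FPKM in WT. The median log2 fold change of those 8 markers was 0.025. For 8 microglia markers, 4 higher and 1 lower, the sum was 53.3 to 60.8 FPKM in KO against 45.2 to 46.8 FPKM in WT. For 6 pericyte markers, 1 of them higher, it was 62.4 to 66.8 FPKM in KO against 53.5 to 55.2 FPKM in WT. For 7 markers of excitatory cortical neurons, 2 lower and 1 higher, it was 350.2 to 357 FPKM in KO against 364 to 385 FPKM in WT, and 0 of 9 interneuron markers passed by limma-trend with BH (1 at an unadjusted p under 0.05, 0 in the authors' deposited table).

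In KO neurospheres 7 of 9 interneuron markers were higher, with a sum of 1311 to 1317 FPKM in KO against 782 to 983 FPKM in WT. Most of that sum was Sst, which was not among the 7, with means of 992.5 FPKM in KO and 730.9 FPKM in WT. The median log2 fold change of the 9 markers was 1.02. The sum of 8 radial glia markers, 1 of them lower, was 813 to 987 FPKM in KO against 1219 to 1568 FPKM in WT. The 8 microglia markers and 8 of 9 endothelial markers had no row in the neurosphere FPKM table, and Cdh5 had none either. The part of these shifts in the values of the cadherins and protocadherins was not tested.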

How the data were processed

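RNA-seq libraries of Hdac3 KO and WT neurospheres and P0 cortex were used, with 2 per group, 4 groups and 8 libraries in all, and groups were taken from the labels. The authors used Bowtie and STAR, Trim Galore, Cufflinks, featureCounts and DESeq2 on the mm9 build, per the submitters' processing notes, and no source used here gives versions or the use of strand.

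The authors deposited FPKM from Cufflinks for each library, with the bounds of its confidence interval, per the file headers. A KO over WT ratio of FPKM in the same deposited tables was left aside. The authors' other tables, per the file headers, hold a mean normalised signal per gene, a log2 fold change with its SE, a Wald score, a p-value and its adjusted value, all from DESeq2. These are quoted only as the authors' values, and an adjusted p left empty there stayed empty.

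Rows with a calendar date for a symbol (20 in neurospheres, 21 in cortex) were removed, and of repeated symbols the row with the higher mean was kept. Genes averaging 1 FPKM or more were tested, as log2(FPKM + 1), with limma-trend (limma 3.58.1 in R 4.3.3, two-sided) and BH adjustment over all genes of a tissue at a threshold of 0.05. Fold changes on this scale understate those of low genes. Tables and figures were made with Python 3.11.15, pandas 2.3.3 and matplotlib 3.10.9. The tests were checked on simulated data. Over 11408 simulated neurosphere genes 77% of changes of 1 on the log2 scale were recovered, and 100% over 11988 simulated cortex genes. Each simulated gene was given the average spread of genes at a similar level, with independent normal noise. Neither genes of unusual spread nor shifts of a whole library were simulated. Changes were placed only in genes averaging 5 FPKM or more, and none smaller than 1 was tried. The rates therefore do not cover members below that level, with smaller changes or with a larger spread, nor libraries that differ as a whole. Of the simulated calls, 6 of 183 in neurospheres and 15 of 215 in cortex fell on unchanged genes. Replicates correlated across genes at 0.968 (KO) and 0.976 (WT) in neurospheres and at 0.995 (KO) and 0.996 (WT) in cortex, and genes are not independent replicates.

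Named with values were members called in either tissue by either method, the 5 most abundant in each tissue and the clustered members with an FPKM row, and for each list of partner genes at most 4 with the lowest p. Members and lists were chosen with earlier results of these data known. Cortex KO and WT libraries share the numbers 1 and 2, which pair nothing by the labels (the deviations of libraries with the same number correlated at −0.096), so no block was used. Alternatives were another pseudocount, other filters, median-ratio rescaling, quantile normalisation, a joint spread, no trend and leaving out each library.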

Additional observations from a re-analysis of the deposited data

Results flagged for a closer look

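Of the clustered protocadherins absent from the cortex FPKM table, 2 passed in the authors' deposited table. Pcdhb11 had a log2 fold change of 1.40 in KO over WT cortex (SE 0.21, adjusted p = 5.48e-09), and Pcdhga1 had −0.57 (SE 0.17, adjusted p = 0.0136). In neurospheres the authors' deposited table gave 0.33 for Pcdhb11 (adjusted p = 0.616) and −0.20 for Pcdhga1 (adjusted p = 0.796). No library values of either gene in cortex stand beside these, and shared sequence in the cluster was not tested as their source.

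In 7 of the 35 members tested in both tissues both KO libraries lay above both WT libraries in neurospheres and below both in cortex, a pattern shown by 5.37% of the 10947 genes tested in both. Ratios of KO to WT mean FPKM follow. Cdh11 had 2.01 in neurospheres and 0.861 in cortex. Cdh8 had 1.32 and 0.687 in the same order, Pcdh18 had 1.38 and 0.695, and Pcdh19 had 1.05 and 0.726. Of the beta genes, Pcdhb17 had 1.09 in neurospheres and 0.793 in cortex, Pcdhb19 had 1.62 and 0.703, and Pcdhb22 had 1.305 and 0.913. The difference between tissues was tested for all of them in the joint limma-trend fit and 0 of the 7 passed. The lowest adjusted p values were 0.0688 for Cdh11, 0.130 for Pcdhb19 and 0.141 for Pcdh18.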

How the results depend on the processing

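With 2 libraries per group the counts of calls moved with most settings. In cortex 17 non-clustered members were lower, 0 higher, 3 clustered members lower and 2699 genes called. Limited to a mean of 5 FPKM, where fewer members were tested, 7 non-clustered and 1 clustered were lower. Median-ratio rescaling gave 12 lower, 2 higher and 0 clustered lower, and quantile normalisation gave 10 lower, 1 higher and 1 clustered lower. With the spread over all 8 libraries 0 non-clustered and 0 clustered members passed, with 6 genes in all. Leave-one-out fits, in which a lone library is assumed to vary like the others, gave 9 to 12 non-clustered lower, 0 to 2 clustered lower and 820 to 1895 genes called. With the replicate block 17 non-clustered and 3 clustered members were lower and 2527 genes called, so it changed no member's call, and the numbers pair the samples by no label. In neurospheres 131 genes and 0 members were called. A pseudocount of 0.1 gave 65 genes, no trend gave 39, and the spread over all 8 libraries gave 1670 genes with 5 non-clustered members lower, 1 higher and 1 clustered higher. Leave-one-out fits gave 0 to 671 genes, 0 to 2 non-clustered lower and 0 to 1 higher. For the difference between tissues 153 genes and 0 members were called, rescaling within each tissue gave 1 non-clustered member, Cdh11, and leave-one-out fits gave 3 to 1162 genes, 0 to 2 non-clustered and 0 to 1 clustered members, all toward higher effects in neurospheres. No called direction was reversed by any of these. The cause was not tested for any of the changed counts apart from the smaller gene set at 5 FPKM. Depth is known only as the authors' mean normalised count, so no counting interval was computed for FPKM. The deposited Cufflinks intervals are quoted for Pcdh20 in cortex alone.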
